A study of Gossypium hirsutum with 30 samples.

Results

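Cotton lint and fuzz are single cells of the ovule's outer epidermis, which start to grow around anthesis, elongate for several weeks and then thicken their walls with cellulose. The comparison described here asks, for every transcript on the array, whether the difference between the fuzzless-lintless (fl) mutant and its wild type (WT) was the same at 20 days post anthesis (dpa), in the secondary wall stage, as at 5 dpa, in the elongation stage. It used 12 of the 30 arrays of the series: 3 labelled fl mutant at 20 dpa, 3 labelled WT at 20 dpa, 3 labelled fl mutant at 5 dpa and 3 labelled WT at 5 dpa. All were Gossypium hirsutum cv. MCU5, tetraploid upland cotton. The fl line is a spontaneous mutant of MCU5 and near-isogenic to it, so 1 mutant line stands for the genotype. Plants were grown in the field, flowers were tagged at anthesis, and total RNA came from fuzzless-lintless ovules of the mutant and from ovules of the WT with their fibres attached. Each array is labelled as a separate biological replicate.

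By the labels a WT sample therefore holds ovule and fibre together, and a mutant sample ovule alone. In such whole-tissue samples fewer cells of a type and less RNA per cell cannot be told apart. The authors' table gives log2 values by RMA, the robust multi-array average, and within each stage every probe set has been moved so that the middle of its 6 arrays lies at 0. It holds no expression levels, so the presence of fibre or embryo markers in a sample could not be checked. Only their difference between the labels could be read, and those of fibre markers are given below. A value of 2 means 4-fold above the middle of that stage's 6 arrays. The shift cancels within a stage, so the quantity tested, (fl mutant minus WT at 20 dpa) minus (fl mutant minus WT at 5 dpa), is unaffected. It is called the stage contrast below and was fitted with limma to all 24029 probe sets, which remained of 24132 after 103 Affymetrix controls were left out. A call needed a contrast of 3-fold or more, 1.58 on the log2 scale, together with an adjusted p (Benjamini-Hochberg) no greater than 0.01. Signs follow the labels deposited with the arrays, and at both stages these run opposite to the fold changes tabulated by the study. The paper reports that its qRT-PCR gave patterns like those of its array data, so by that account the second assay goes with the study's signs. The labels were not tested against that assay. Exchanging the labels at both stages would turn the sign of every contrast and of every difference at 5 and 20 dpa below, and leave its size as it is.

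During elongation the fibre cell expands under turgor while expansins, xyloglucan endotransglucosylases and pectin enzymes loosen and remodel its primary wall, and aquaporins and sucrose carriers serve the influx of water and solutes. In the secondary wall stage cellulose synthases and fasciclin-like arabinogalactan proteins are prominent in fibre, while the embryo inside the same ovule begins to store globulins. Small heat shock proteins hold unfolding proteins in solution, and in many plants they are made not only under heat but also in maturing seeds. NAC, WRKY and AP2-EREBP proteins are large plant families of transcription factors, many of them responsive to stress, abscisic acid, salicylic acid or ethylene.

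The genotype difference depended on the stage for a large set of transcripts. In the stage contrast 754 probe sets were called higher (3.14% of 24029) and 1014 lower (4.22%), 7.36% in either direction. The median contrast over all probe sets was 0.07, with 5% below −1.43 and 5% above 1.19, and the extremes were −11.32 and 9.79. Without the fold threshold 39.7% passed the adjusted p, which with a median standard error (SE) of 0.129 includes many small contrasts. The median of the called contrasts was 2.16 for those higher and −2.25 for those lower. At 20 dpa by itself 594 probe sets were called higher (2.47%) and 468 lower (1.95%) in arrays labelled fl mutant, 4.42% in either direction. The corresponding numbers of the 5 dpa arrays were 441 higher (1.84%) and 43 lower (0.179%), 2.01% in either direction. The residual SD between arrays of 1 group was alike at the 2 stages, with medians of 0.11 at 20 dpa and 0.101 at 5 dpa, so the larger number at 20 dpa was not accompanied by a tighter spread.

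Contrasts in the 2 directions were built differently. Of the 754 higher, 491 were called at 20 dpa and not at 5 dpa, with median differences of 2.31 at 20 dpa and −0.132 at 5 dpa. Another 20 were called at 5 dpa alone, 11 in opposite directions at both stages, 4 in the same direction at both and 228 at neither. For 703 of the 754 the difference was larger in size at 20 dpa. The 1014 lower were more evenly divided, with 305 called at 20 dpa alone (medians −2.19 at 20 dpa and 0.0448 at 5 dpa), 296 at 5 dpa alone (−0.419 and 2.37), 72 in opposite directions at both, 1 in the same direction and 340 at neither. For 518 of these 1014 the difference was larger in size at 20 dpa. The signs crossed 0 in most cases: 581 of the 754 were above 0 at 20 dpa and below 0 at 5 dpa, and 800 of the 1014 the other way round. Part of this follows from the selection, since all 228 and all 340 called at neither stage crossed. Of those called at 20 dpa alone 327 of 491 and 161 of 305 crossed, and at 5 dpa alone 15 of 20 and 227 of 296. Among 22021 probe sets called neither in the contrast nor at a stage, 7541 crossed the first way and 4106 the second. Over all 24029 probe sets the 2 differences had a Pearson correlation of −0.0997, given as a description, since probe sets are not independent and each stage's values share its 6 arrays.

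**Figure D1:**
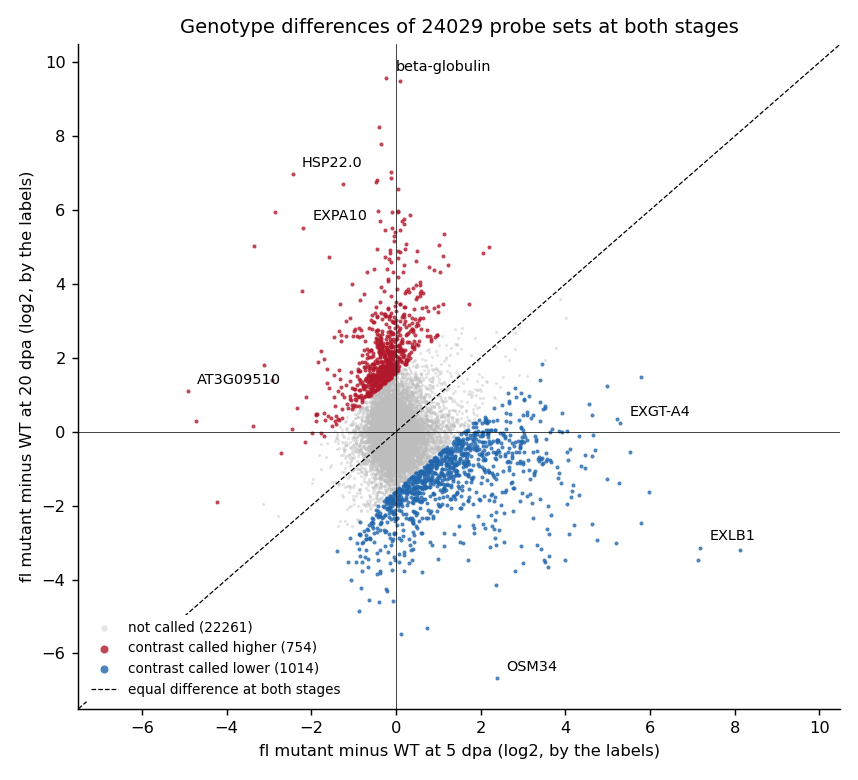
Each point is 1 of 24029 probe sets, with the fl mutant minus WT difference at 5 dpa on the x axis and at 20 dpa on the y axis, both log2 and by the labels. The 754 probe sets called higher in the stage contrast lie mostly near 0 on the x axis, while the 1014 called lower spread along both axes, among them OSM34 at −6.68 at 20 dpa and EXLB1 at 7.19 at 5 dpa.

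Transcripts carry the name of the best Arabidopsis match in the study's tables. Such a match was read from those tables for 1664 probe sets, at 1252 loci. The paper reports matches for more probe sets than this, so those called unmatched here can have a name in the study. Matches covered the stages unevenly. They were held for 246 of the 441 higher and 12 of the 43 lower at 5 dpa. At 20 dpa these counts were 128 of 594 and 182 of 468. The tables list only probe sets the study had called on these arrays at some stage. Matched probe sets were accordingly called more often, 6.67% higher and 27.4% lower, with a median contrast of −0.708. For the 22365 without a match the median was 0.0887, with 643 called higher and 558 lower. The larger gene lists are therefore set beside these shares of matched probe sets as well as the 3.14% higher and 4.22% lower of all, and since the study or the lists drew on its own calls, no count of a list is independent evidence of a direction.

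Among matched probe sets a seed protein and 3 small heat shock proteins had the 4 largest positive contrasts by locus. At the top was a β-globulin-like cupin, AT1G03890 (Ghi.8040.1.S1_s_at), of the family of seed storage proteins. Its log2 values were 4.75, 4.73 and 4.74 in arrays labelled fl mutant at 20 dpa, against −4.87, −4.89 and −4.73 in those labelled WT. At 5 dpa they were −0.22, −0.29 and 0.013 in fl mutant and 0.089, 0.098 and −0.013 in WT. The genotypes lay far apart at 20 dpa and overlapped at 5 dpa, and the contrast was 9.79 (SE 0.113, limma adjusted p = 2.28e-14). Since the array's probes were not among the sequences used here, the qRT-PCR primers with which the study amplified this transcript are printed to show which messenger was meant, 5′ to 3′, all in lower case:
AT1G03890 forward: acagcagatgcagggaagaagtga
AT1G03890 reverse: tgtcgaaggcacagagaaggttgt

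A pair of probe sets without a match had contrasts of nearly the same size. Ghi.5434.1.A1_at read 4.66, 4.69 and 4.64 in fl mutant and −4.93, −4.98 and −4.64 in WT at 20 dpa, with a contrast of 9.41. Ghi.8039.1.A1_x_at had a contrast of 8.64, with 8.25 at 20 dpa and −0.40 at 5 dpa. In both, as in the globulin, the genotypes overlapped at 5 dpa. The other storage and late embryogenesis transcripts did not go with the globulin. Of the 7 in that list 1 was called higher and 3 lower in the contrast, and 5 were called higher in fl mutant at 5 dpa, among them SAG21, a late embryogenesis protein, which had 2.37, 2.21 and 2.15 in fl mutant and −2.48, −2.15 and −2.62 in WT at 5 dpa and a contrast of −4.74.

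Heat shock transcripts formed the list with the most members called higher. Of its 58 probe sets 30 were called higher (51.7%, beside 6.67% of the matched and 3.14% of all) and 4 lower (6.9%), and the median contrast was 1.73. At 20 dpa 29 were called higher and 3 lower in arrays labelled fl mutant, and at 5 dpa 4 higher and 3 lower. The small heat shock proteins, a grouping by name made after the values were seen, held 17 of the 30: each of the 17 was called higher, with contrasts of 2.14 to 9.41 and a median of 4.06. All 17 were also called higher at 20 dpa, while at 5 dpa 15 lay below 0 and 3 were called lower.

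HSP22.0, a small heat shock protein that in Arabidopsis resides in the endoplasmic reticulum, led them. Ghi.8355.1.A1_at read 3.36, 3.45 and 3.47 in fl mutant and −3.86, −3.42 and −3.36 in WT at 20 dpa. At 5 dpa the order was turned, with −1.26, −1.11 and −1.26 in fl mutant and 1.21, 1.35 and 1.11 in WT. No value of either genotype overlapped the other's at either stage. The contrast was 9.41 (SE 0.165, adjusted p = 6.20e-13), from 6.97 at 20 dpa and −2.44 at 5 dpa. AT1G07400, a cytosolic small heat shock protein, likewise went opposite ways, at 5.96 and −2.85, with a contrast of 8.81 (SE 0.158, adjusted p = 7.03e-13). The 6 probe sets matched to AT2G29500, a gene of the same class, had contrasts of 2.49 to 7.96.

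HSP18.2 (Ghi.9308.1.S1_at), another cytosolic member, had 1.29, 1.28 and 1.39 in fl mutant and −1.42, −1.51 and −1.28 in WT at 20 dpa. Its 5 dpa values were −0.61, −0.69 and −0.64 in fl mutant and 0.73, 0.61 and 0.72 in WT, again without overlap and the other way round. The contrast was 4.06 (SE 0.0994, adjusted p = 7.49e-12), although the 5 dpa difference of −1.34 missed the 3-fold threshold. Its qRT-PCR primers and those of HSFA2, the transcription factor known in Arabidopsis to drive such genes under prolonged heat, are shown to identify the pair of transcripts, 5′ to 3′:
HSP18.2 forward: agctcatgtcttcaaagccgacct
HSP18.2 reverse: ttctggcaacctgaacctcctcat
HSFA2 forward: cagaaacaggtgtagaagacgtgc
HSFA2 reverse: tgggcaagtgactcattcctcttc

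HSFA2 (Ghi.10292.1.S1_s_at) read 1.41, 1.40 and 1.28 in fl mutant and −1.28, −1.50 and −1.42 in WT at 20 dpa, against −0.29, −0.47 and −0.53 in fl mutant and 0.29, 0.54 and 0.38 in WT at 5 dpa. It was high in fl mutant at the later stage and low at the earlier one, with a contrast of 3.59 (SE 0.127, adjusted p = 1.71e-10). HSFB4, a class B factor, had a contrast of 2.68. The other 5 probe sets of the 7 in the heat shock factor family did not pass, among them HSFA3 at −0.414 and HSFB2B at 1.18. Larger chaperones followed in part: 4 of 7 HSP90 probe sets were called higher, all of them matched to HSP81-1 at 2.38 to 3.48, whereas those matched to HSP81-2 stood at 0.0797 to 0.982 and did not pass. Of 6 HSP70 probe sets 3 were called higher, up to 4.86. The DnaJ co-chaperones were split, with 2 higher and 3 lower of 11, the lowest being AT2G17880 at −4.19.

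Fasciclin-like arabinogalactan proteins, cell surface glycoproteins of which FLA11 and FLA12 mark secondary wall formation in Arabidopsis stems, were carried by 20 dpa alone. In the arabinogalactan list 8 of 15 probe sets were called higher (53.3%, beside 6.67% of the matched) and 2 lower, with a median contrast of 2.14, and at 5 dpa none of the 15 was called. Among the 4 probe sets of the list without a cross-hybridising suffix 1 was called higher and 1 lower. For FLA11 (Ghi.4418.2.S1_s_at) the 20 dpa values were 2.33, 2.29 and 2.33 in fl mutant and −2.40, −2.37 and −2.29 in WT. Those of 5 dpa were −0.14, 0.072 and −0.17 in fl mutant and 0.054, 0.29 and −0.054 in WT, and overlapped. The contrast of 4.84 (SE 0.128, adjusted p = 1.31e-11) was thus nearly the 20 dpa difference itself. The other 2 probe sets of FLA11 had contrasts of 4.71 and 2.14. The primers of the first are given so that the transcript can be told from its close relatives, 5′ to 3′:
FLA11 forward: acccttaaccgctgctttaggact
FLA11 reverse: aatgtgacgaccggagtggtgaat

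FLA7 (Ghi.5860.1.S1_s_at) had the largest contrast of the list, 5.38, beside 1.02 in a second probe set that did not pass, with 2.58, 2.73 and 2.74 in fl mutant and −2.82, −2.96 and −2.58 in WT at 20 dpa. FLA12 stood at 4.41 and 3.41 in a pair of probe sets that passed and at 1.35 in one that did not. FLA2 ran the other way at −3.41, so the family did not move as a block. Proline-rich wall proteins, 3 probe sets, were all called higher, at a median of 2.6. The markers of fibre, 28 probe sets fixed by name, included several of these genes. In the contrast 8 were called higher (28.6%) and 3 lower (10.7%), with a median of 0.797. The matched probe sets had 6.67% and 27.4%, and all probe sets 3.14% and 4.22%. At 20 dpa 10 markers were called higher and 2 lower in arrays labelled fl mutant, beside 2.47% and 1.95% of all. Those arrays are labelled as ovules without fibre, and whether the markers go with that label was not tested. Among the 3 lower were both passing probe sets of CUT1, the condensing enzyme KCS6 of very long chain fatty acid synthesis, at −3.33 and −2.71. The cellulose synthases of the secondary wall did not pass: IRX3 stood at 0.918 and 0.658 and CESA8 at 1.5 and 0.984. Without replicate 1 of the fl mutant at 5 dpa, 1 of the 9 cellulose synthase probe sets was called higher, against 0 with all arrays. These marker values move with the contrast, and their part in the results was not tested.

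**Figure D2:**
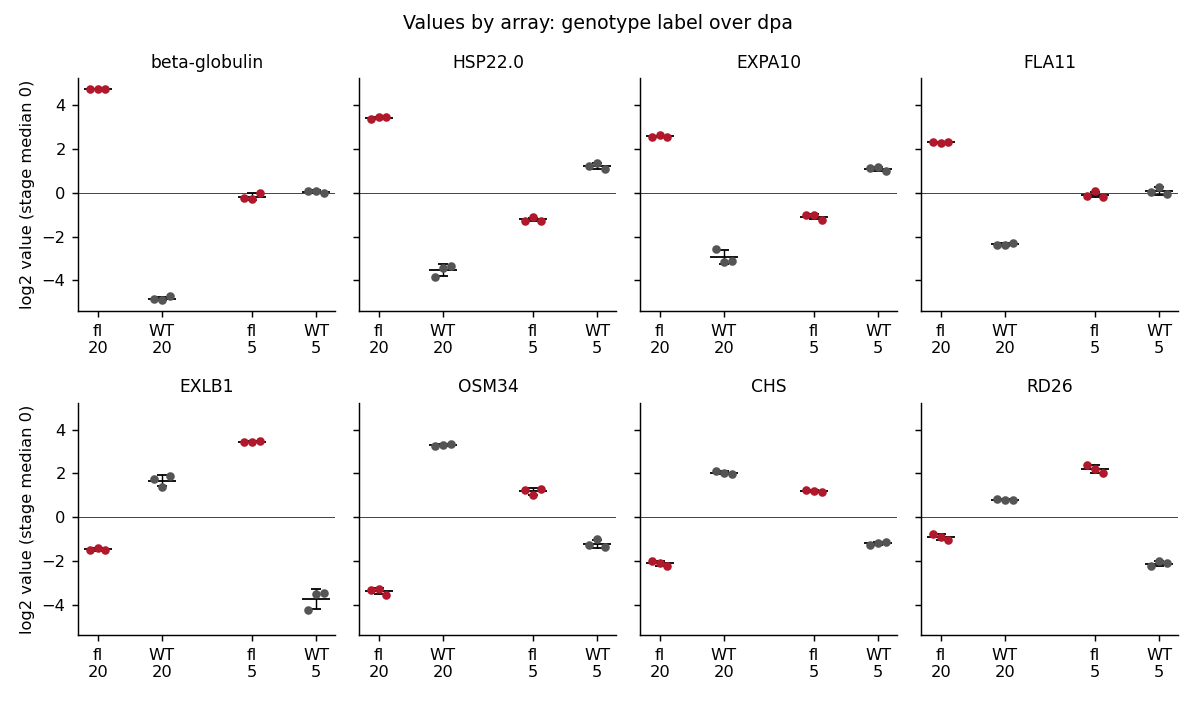
Log2 values of 8 transcripts on the 12 arrays, each relative to the median of its stage, with genotype and dpa on the x axis, red for fl mutant and grey for WT. Horizontal marks and bars show the mean and SD of 3 arrays. The β-globulin and FLA11 separate at 20 dpa only, while HSP22.0, EXPA10, EXLB1, OSM34, CHS and RD26 change order between the stages.

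Expansins, proteins that loosen the wall, stood near both ends of the contrast. The α-expansin EXPA10 (Ghi.5163.1.A1_at) had 2.57, 2.62 and 2.57 in fl mutant and −2.57, −3.16 and −3.09 in WT at 20 dpa, and −1.00, −1.02 and −1.22 in fl mutant and 1.13, 1.17 and 1.00 in WT at 5 dpa. No value overlapped, and the order of the genotypes was opposite at the 2 stages. Its contrast was 7.71 (SE 0.182, adjusted p = 5.86e-12), while a second probe set of EXPA10 stood at 0.199 and did not pass. EXPA8, expressed in fibre, was called in 1 of its 4 probe sets, at 3.15, and EXPA6 at 2.41.

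Expansin-like EXLB1, of a sister family whose wall activity is not settled, was the mirror image. Ghi.6465.2.S1_at read −1.50, −1.38 and −1.51 in fl mutant and 1.77, 1.38 and 1.88 in WT at 20 dpa, against 3.44, 3.44 and 3.47 in fl mutant and −4.26, −3.51 and −3.44 in WT at 5 dpa. The fl mutant was low at 20 dpa and high at 5 dpa, and the contrast of −10.32 (SE 0.258, adjusted p = 8.41e-12) was accompanied by −8.21 in its second probe set. In the whole list of 19 expansins 3 were called higher (15.8%) and 4 lower (21.1%), beside 6.67% and 27.4% of the matched. The pectin enzymes, 39 probe sets, had 11 higher and 11 lower. Their 28.2% lower was near the share of the matched, and their 28.2% higher was above it. The highest were 2 unmatched probe sets that the study lists there, Ghi.6165.2.S1_x_at at 7.26 and Ghi.6165.3.S1_x_at at 7.22, which share a cluster number and may read 1 transcript.

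Enzymes that modify xyloglucan, the tether between cellulose fibrils, were called in 1 direction. None of 25 probe sets was called higher and 11 were called lower, with a median contrast of −1.22, 44.0% against 27.4% of the matched probe sets. The endotransglucosylases, which cut and rejoin the tethers, made up 19 of the 25 and 9 of the 11, and the other 2 lower were the xylosidases BXL1 at −3.45 and XYL1 at −1.79. EXGT-A4 (GhiAffx.63628.1.S1_at) had 2.61, 2.49 and 2.48 in fl mutant and −2.48, −2.93 and −2.94 in WT at 5 dpa. At 20 dpa its values, −0.071, 0.37 and 0.082 in fl mutant and −0.18, −0.23 and 0.071 in WT, overlapped. This contrast of −5.07 (SE 0.195, adjusted p = 3.45e-10) was carried by 5 dpa alone, while that of XTH16, −3.57, was carried by 20 dpa, with differences of −3.17 at 20 dpa and 0.402 at 5 dpa. TCH4, the touch-induced member, was measured by 8 probe sets from −4.85 to 0.675, of which 3 passed. Only −4.85 in Ghi.7911.1.S1_x_at came from opposite calls at the 2 stages, and the probe set amplified by the study's primers stood at −1.22 and did not pass.

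Laccases, which polymerise lignin, and the secondary wall regulator KNAT7 were lower in the contrast, LAC14 at −5.44 in the leading of its 4 probe sets, of which 2 passed, LAC12 at −4.95 and KNAT7 at −2.46, all in the list of 25 secondary wall probe sets that held 5 higher and 4 lower. The 5 higher were FLA11 and FLA12. Of all matched probe sets 6.67% were called higher and 27.4% lower. Suppliers of wall precursors had 1 higher and 6 lower of 15, or 2 higher without replicate 2 of the fl mutant at 5 dpa. The higher one was SUS4 (Ghi.2039.2.S1_s_at), a sucrose synthase, which delivers UDP-glucose. It read 0.91, 1.02 and 0.88 in fl mutant and −0.97, −0.88 and −1.00 in WT at 20 dpa, and −0.93, −0.79 and −1.01 in fl mutant and 0.79, 1.00 and 1.01 in WT at 5 dpa, a reversal with a contrast of 3.73. UGE1, a UDP-glucose epimerase, stood at −3.56. Among 34 cytoskeleton probe sets 4 were called higher (11.8%) and 1 lower (2.94%). The highest was β-tubulin TUB6 at 2.97, with 1.15 in its second probe set, which did not pass.

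Lipid genes of the cuticle were divided as well. Of 22 probe sets of very long chain fatty acid synthesis 1 was called higher, KCS11 at 3.10, and 6 lower. These were 4.55% and 27.3%, near the 6.67% and 27.4% of the matched. The other 2 probe sets of KCS11 stood at −0.33 and 0.52 and did not pass. In the list of 10 wax and cutin probe sets 3 were higher and 2 lower, with CER4, a reductase that makes primary alcohols, at 3.36 and CER3, called FLP1 in the match and needed for alkanes, at 3.28. Neither held in its second probe set, at 0.708 for CER4 and −1.02 for CER3, both not called. The lipid transfer proteins held 5 higher (21.7%) and 6 lower (26.1%) of 23, the lower share again near that of the matched. They ranged from 3.12 for AT2G48130 to −3.97 for AT2G45180, whose 4 probe sets reached up to 1.07. In the lowest one the fl mutant had −2.67, −2.37 and −2.37 and WT 2.40, 2.37 and 2.37 at 20 dpa.

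Photosynthesis transcripts were higher in the contrast or did not pass. Of 34 probe sets of photosystems and carbon fixation 9 were called higher (26.5%, beside 6.67% of the matched and 3.14% of all) and 0 lower, with a median of 0.77. At 20 dpa 17 of them were called higher in fl mutant and at 5 dpa 0, though 30 of the 34 lay above 0 there too. LHCB6, an antenna protein of photosystem II (Ghi.6665.1.S1_s_at), had 1.59, 1.48 and 1.72 in fl mutant and −1.58, −1.48 and −1.72 in WT at 20 dpa, against 0.15, 0.056 and 0.063 in fl mutant and −0.15, −0.056 and −0.081 in WT at 5 dpa. The gap was wide at the later stage and narrow at the earlier one, with a contrast of 3.01 (SE 0.111, adjusted p = 2.45e-10). A second probe set of LHCB6 stood at 0.632. FBA2, the plastid aldolase of the Calvin cycle, was at 3.20, and at 1.51 in a probe set that did not pass, and ALDH11A3, a cytosolic glyceraldehyde phosphate dehydrogenase, at 3.65. Among the 17 probe sets without a cross-hybridising suffix 2 were called higher. In the shorter list of 13 green tissue markers 5 were called higher and 0 lower, while both probe sets of the rubisco small subunit, AT5G38430, were at −0.526 and −0.16. The part of green tissue in these values was not tested.

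**Figure D3:**
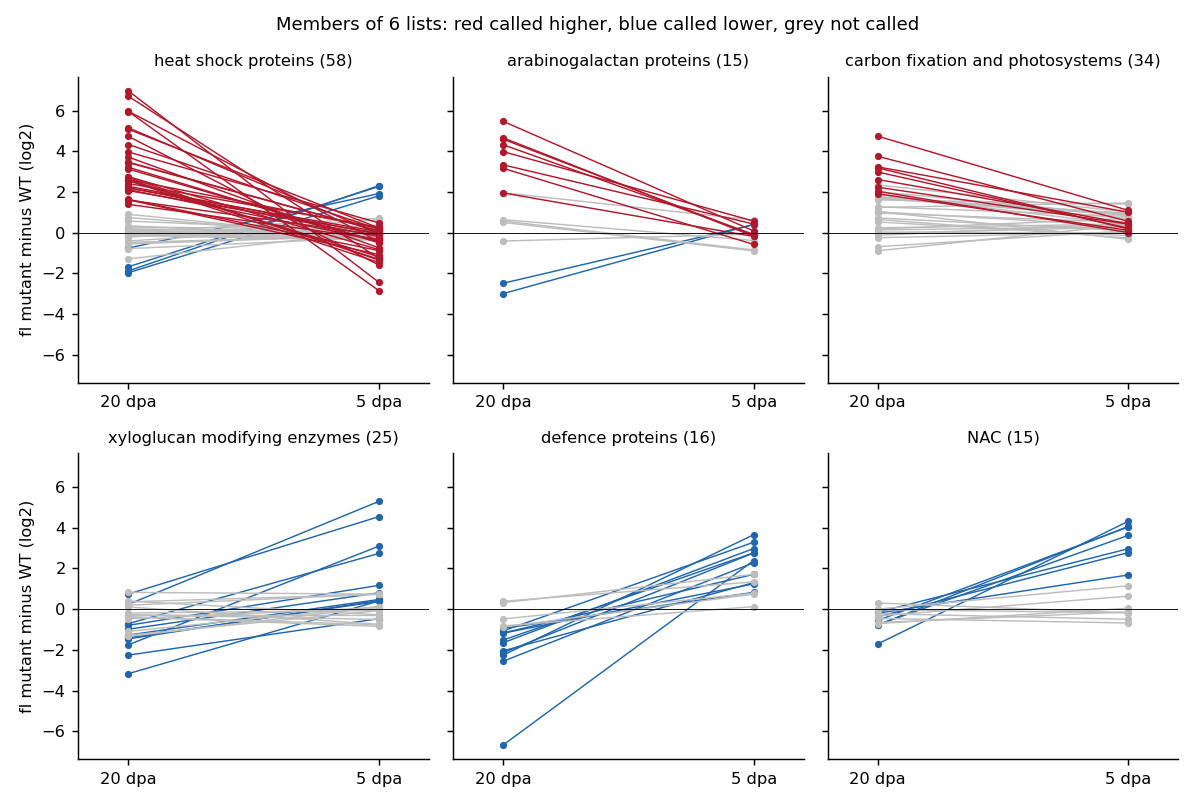
Lines join the fl mutant minus WT differences (log2, y axis) of each probe set of 6 lists at 20 dpa, left, and at 5 dpa, right. Red lines were called higher in the stage contrast, blue lines lower, and grey lines were not called. The heat shock list fans out above 0 at 20 dpa, and the NAC list does so at 5 dpa.

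Defence proteins were called lower in most of their probe sets. Of 16 none was called higher and 11 were called lower (68.8%, beside 27.4% of the matched and 4.22% of all), with a median contrast of −3.12. At 20 dpa 6 were called lower in arrays labelled fl mutant, and at 5 dpa 9 were called higher. Osmotin 34 (Ghi.10646.1.S1_s_at), an antifungal and osmotic stress protein, had −3.32, −3.27 and −3.53 in fl mutant and 3.27, 3.29 and 3.35 in WT at 20 dpa. The order was turned at 5 dpa, with 1.25, 1.00 and 1.29 in fl mutant and −1.28, −1.00 and −1.37 in WT. Its contrast was −9.07 (SE 0.153, adjusted p = 4.62e-13), and a second probe set stood at −4.36.

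The 5 probe sets of AT1G17860, a Kunitz protease inhibitor, ranged from −5.93 to −0.956, and 3 of them passed. Basic chitinase CHIB, which cleaves fungal walls (Ghi.6521.1.S1_at), lay outside that list and had −1.77, −2.16 and −1.82 in fl mutant and 1.77, 1.98 and 1.79 in WT at 20 dpa, against 1.58, 1.23 and 1.50 in fl mutant and −1.68, −1.23 and −1.25 in WT at 5 dpa. It too was low in fl mutant at 20 dpa and high at 5 dpa, with a contrast of −6.58. A mannose-binding lectin, AT1G78860, stood at −8.27, an aspartyl protease, AT1G03220, at −6.38 and a class III peroxidase, AT5G05340, at −6.41. For the peroxidase locus another probe set was called the opposite way, at 1.73.

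Some transporters and flavonoid genes were likewise below WT at 20 dpa and above it at 5 dpa. NRT1.5, which loads nitrate into the xylem in Arabidopsis, had a contrast of −7.60, from −1.63 at 20 dpa and 5.97 at 5 dpa. PIP2B, an aquaporin of the plasma membrane (GhiAffx.10920.2.S1_at), had −1.94, −1.77 and −1.86 in fl mutant and 1.79, 1.90 and 1.77 in WT at 20 dpa, against 1.69, 1.72 and 1.65 in fl mutant and −2.26, −1.65 and −1.79 in WT at 5 dpa. No value overlapped, and the contrast was −7.26 (SE 0.175, adjusted p = 6.79e-12). Lower calls made up 27.4% of the matched probe sets and 4.22% of all. Among 10 probe sets of water and ion transport 6 were called lower in the contrast and 0 higher. At the single stages 0 of the 10 were called at 20 dpa and 2, both higher, at 5 dpa. The 6 were both of the vacuolar aquaporin GAMMA-TIP, at −3.54 and −3.18, the sucrose carrier SUC2 at −2.76, the chloride channel CLC-C at −1.74 and −1.64, and the potassium transporter AT5G14880 at −1.89. The proton pump AHA1, at −0.835 and −0.607, and the potassium channel AKT1, at −0.287 and −0.0169, did not pass.

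Chalcone synthase (CHS), the first enzyme of flavonoid synthesis, was called lower in both of its matched probe sets, at −6.52 and −5.1. Gra.432.1.S1_s_at read −1.98, −2.10 and −2.24 in fl mutant and 2.1, 2.04 and 1.98 in WT at 20 dpa, and 1.24, 1.18 and 1.14 in fl mutant and −1.26, −1.16 and −1.14 in WT at 5 dpa. The hormone search of the study, not used for names here, assigns further probe sets to CHS. Of these 6, 5 were called lower, at −1.94 to −2.98 and with differences below 0 at both stages. The sixth, Ghi.6103.1.S1_at, which the paper also prints as CHS, went the other way. It was called higher at 20 dpa, at 1.72, and stood at 0.168 at 5 dpa, and its contrast of 1.55 did not pass. Later in the pathway, DFR, a reductase, was below 0 at both stages, at −2.35 and −0.555 in the probe set that passed. The regulators TT2, TT16 and MYB5 did not pass. In all, 4 of 10 probe sets of seed coat flavonoids were called lower and 0 higher, beside 27.4% lower of the matched. With so few probe sets this is not far from the share of the matched. Of the 4 without a cross-hybridising suffix none was called.

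Transcription factors had shares near those of all matched probe sets. Over the families of 7 or more probe sets 73 of 278 were called lower (26.3%, beside 27.4% of the matched) and 11 higher (3.96%, beside 6.67%). The NAC family was called lower most often, 7 of 15 (46.7%) with 0 higher, and all 7 were called at 5 dpa, where arrays labelled fl mutant were above WT. RD26 (Ghi.7907.1.S1_s_at), a factor induced by drought and abscisic acid, had −0.77, −0.91 and −1.02 in fl mutant and 0.85, 0.77 and 0.81 in WT at 20 dpa, against 2.41, 2.21 and 2.02 in fl mutant and −2.25, −2.02 and −2.08 in WT at 5 dpa. It was the single NAC transcript called at both stages, in opposite directions, with a contrast of −6.04 (SE 0.142, adjusted p = 5.79e-12). ANAC047, ANAC074, ANAC083 and ATAF1 were at −1.88 to −4.84 in the probe sets that passed, and NST1, a regulator of secondary walls, was at 0.155.

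The WRKY list of 54 probe sets came from the study's sequence search against transcription factors and also includes kinases. It held 18 lower and 0 higher, a share of 33.3% against 27.4% of the matched probe sets. This share is thus not one of WRKY factors alone. WRKY6, active in senescence and defence (Ghi.9182.3.S1_at), had −1.00, −0.90 and −0.85 in fl mutant and 1.17, 0.85 and 0.97 in WT at 20 dpa, against 1.58, 1.45 and 1.67 in fl mutant and −1.79, −1.45 and −1.67 in WT at 5 dpa. The contrast of −5.12 came from opposite calls at the 2 stages. WRKY75, WRKY33 and WRKY70 were lower mainly through 5 dpa, with differences there of 3.58, 2.8 and 2.29 in their leading probe sets. Kinases in the list included a receptor-like kinase, AT3G14840, at −6.06 and MKK9, a MAP kinase kinase, at −4.33.

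Of 49 AP2-EREBP probe sets 17 were lower (34.7%) and 2 higher. RAV1, which restrains growth in Arabidopsis, stood at −5.59 and ERF-1, an ethylene response factor, at −4.49, both called in opposite directions at the 2 stages. The MYB family had 7 lower (23.3%) and 0 higher of 30, led by MYB73, at −3.41 to 0.44 in 5 probe sets, and MYB108 at −3.23. Zinc fingers of the C2H2 type had 5 lower (27.8%) and 0 higher of 18, with STZ, a repressor in salt stress, at −3.45. Homeobox factors were called 2 higher and 5 lower (19.2%) of 26, led by BLH1 at −4.33, with 0.20 in its second probe set, and bHLH factors 1 higher and 4 lower (20.0%) of 20, led by BHLH32, which acts in vascular development, at −5.64. Without replicate 1 of WT at 5 dpa the homeobox count was 1 higher. AUX/IAA repressors of the auxin response were lower in 3 of 9, IAA14 at −3.11. Among the families of 7 or more, only C3H zinc fingers and the heat shock factors had more probe sets called higher than lower. C3H had 3 higher and 2 lower of 16, or 1 lower without replicate 2 of WT or of the fl mutant at 5 dpa. Its median contrast was 0.00693, below the 0.454 of GATA and the 0.356 of MYB-related factors. The highest of the C3H family was SOM, which holds back light-dependent germination in Arabidopsis, at 3.84. No bZIP or GATA probe set, of 7 and 10, was called.

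The hormone groups given here, assigned by the study, had lower shares near or above that of the matched probe sets. The groups also hold probe sets found in the hormone search alone, which are not among the matched. That search gave another locus than the whole-genome search for 385 of 574 shared probe sets (67.1%), so membership is uncertain. The lower share was 29.3% of 287 for abscisic acid, 27.4% of 212 for auxin, 35.9% of 131 for brassinosteroid, 26.5% of 162 for ethylene and 32.0% of 122 for salicylic acid, beside 27.4% of all matched. Higher calls were most frequent in the ethylene group, 24 of 162, and least in the salicylic acid group, 1 of 122. In the list of 4 lipoxygenase and jasmonate probe sets 3 were lower: AOS, which acts in jasmonate synthesis, at −2.10, the lipoxygenase LOX1 at −1.96 and JMT, which methylates jasmonate, at −1.77. A second probe set of AOS stood at 1.47 and did not pass. Of 8 senescence transcripts 4 were lower and 0 higher, beside the same 27.4% lower of the matched. RNS3, a secreted ribonuclease (Ghi.4737.1.A1_at), was above WT at both stages, with 2.85, 2.80 and 2.85 in fl mutant and −2.80, −3.20 and −2.85 in WT at 5 dpa. Its contrast of −4.31 therefore reflects a smaller excess at 20 dpa, 1.47, than at 5 dpa, 5.78. Of 12 cell division probe sets 1 was lower, the kinase NEK2 at −2.83, and 0 higher.

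**Figure D4:**
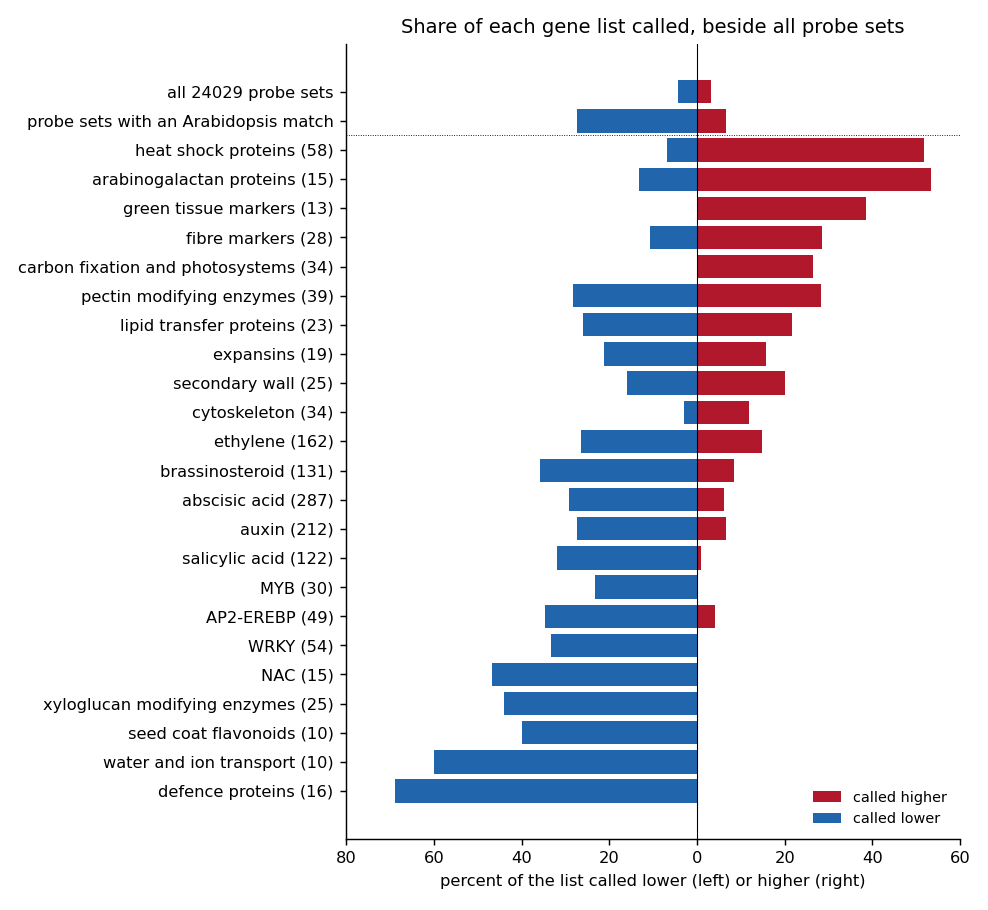
Bars give the percent of each list called higher (right) and lower (left) in the stage contrast, with the number of probe sets in brackets. The upper 2 rows are all 24029 probe sets (3.14% higher, 4.22% lower) and the 1664 with an Arabidopsis match (6.67% and 27.4%). Among the 23 lists drawn, heat shock and arabinogalactan proteins reach furthest to the right and defence proteins furthest to the left.

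Other large contrasts lay outside the lists of wall, heat shock, defence and regulatory genes. CYP87A2, a cytochrome P450, stood at 5.53 with the largest SE of the leading transcripts, 0.324, since 1 WT array at 20 dpa read −3.78 beside −2.68 and −2.81 in the other 2. AT1G77780, a glycosyl hydrolase and the highest of the brassinosteroid group, was at 5.91, and AT2G37700, a fatty acid hydroxylase and the highest of the abscisic acid group, at 5.35, both through 20 dpa. AT3G09510 (Ghi.5120.1.A1_at), a ribonuclease H-like protein, was instead carried by 5 dpa, with −2.40, −2.38 and −2.52 in fl mutant and 2.38, 2.60 and 2.48 in WT. Its contrast was 6.02, and its 20 dpa difference of 1.09 did not pass. On the negative side AT3G62730, of unknown function (Gra.1633.1.A1_s_at), had −1.59, −2.00 and −1.60 in fl mutant and 1.77, 1.59 and 1.85 in WT at 20 dpa, against 3.54, 3.54 and 3.66 in fl mutant and −3.54, −3.57 and −3.59 in WT at 5 dpa. The order was reversed without overlap, with a contrast of −10.61 (SE 0.149, adjusted p = 1.11e-13). The lowest contrast of all belonged to the unmatched Ghi.8476.1.S1_x_at, −11.32, from −3.20 at 20 dpa and 8.13 at 5 dpa.

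Probe sets called in opposite directions at both stages were few and uneven. The 11 higher at 20 dpa and lower at 5 dpa included 5 with a match, namely HSP22.0, AT1G07400, a probe set of AT2G29500, EXPA10 and SUS4. The 72 lower at 20 dpa and higher at 5 dpa had 45 with a match, at 38 loci, with medians of −2.43 at 20 dpa and 2.67 at 5 dpa. They included the defence, transport, laccase, chalcone synthase, RD26, RAV1, ERF-1 and WRKY6 transcripts described above.

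The 28 transcripts that the study also assayed by qRT-PCR split into 14 higher, 6 lower and 8 not called, with a median contrast of 1.37. All 14 higher were called higher at 20 dpa. Germin-like GLP3, a glycoprotein of the extracellular matrix, stood at 2.39 and RD22, a BURP domain protein, at 1.81. Of 3 calcium-binding proteins AT4G27280 was called lower, at −2.22, while TCH2 at −1.57, just short of the threshold, and CAM1 at 0.23 were not called. The qRT-PCR values themselves were not used here.

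The remaining 18 arrays, of 0, 10 and 15 dpa, took no part in the contrast and show where its members stood at other times. At 0 dpa, where 0.154% of all probe sets were higher and 1.39% lower in fl mutant, the 754 called higher held 11 and 25 such members, and the 1014 called lower held 4 and 154. At 15 dpa, with 1.52% of all higher and 1.91% lower, these counts were 26 and 99 in the set of 754, and 122 and 58 in the set of 1014. The 10 dpa arrays had more calls, 24 higher and 168 lower of the 754, beside 346 higher and 124 lower of the 1014. As shares, 22.3% of the higher set was lower at 10 dpa, beside 6.55% of all probe sets, and 34.1% of the lower set was higher at 10 dpa, beside 4.91% of all. Members of the lower set at 10 dpa thus more often had the sign they carried at 5 dpa by the labels, and this was clearest for the 72 with opposite calls, of which 48 (66.7%) were higher and 3 lower at 10 dpa. For transcripts named in both, the labels at 0, 10 and 15 dpa give the signs the study prints, unlike those at 5 and 20 dpa. With the labels exchanged at 5 and 20 dpa only, these comparisons would run the other way. OSM34, for instance, had a difference of 2.39 at 5 dpa, 7.48 at 10 dpa, −0.236 at 15 dpa and −6.68 at 20 dpa. For HSP18.2 the series was 2.08 at 0 dpa, −1.34 at 5 dpa, −7.16 at 10 dpa, 1.57 at 15 dpa and 2.72 at 20 dpa. FLA11 was at −7.04 at 15 dpa and 4.67 at 20 dpa. Under the deposited labels these values differ in sign, and with the labels exchanged at 20 dpa they would not. Whether the genotype difference of FLA11 turned between those neighbouring stages therefore cannot be read from them.

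**Figure D5:**
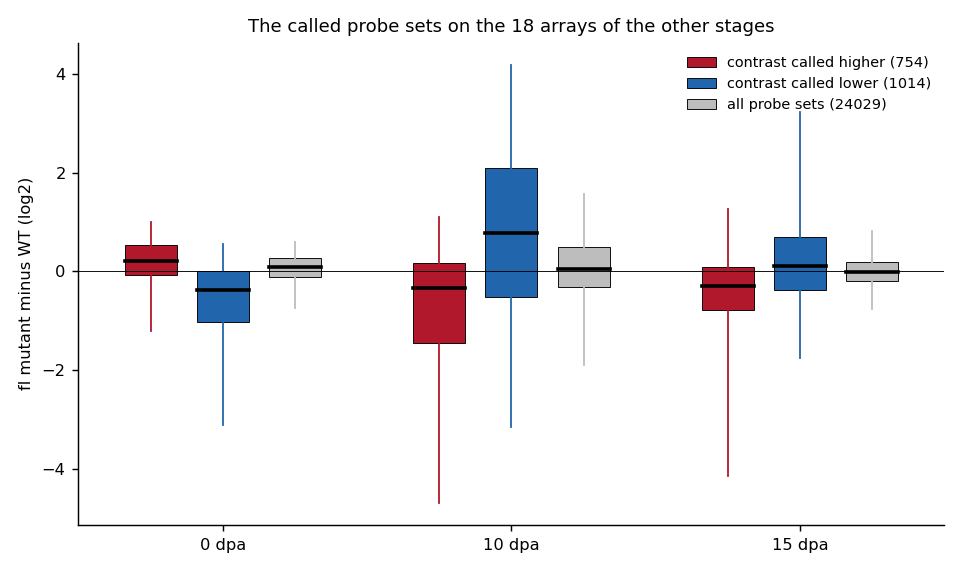
Boxes show the quartiles and median, and lines the 5th to 95th percentile, of the fl mutant minus WT difference (log2) at 0, 10 and 15 dpa for the 754 probe sets called higher in the contrast (red), the 1014 called lower (blue) and all 24029 (grey). At 10 dpa the medians were −0.328 for the higher set and 0.77 for the lower set, beside 0.0395 for all.

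Probe sets of 1 gene did not always agree. Of 157 Arabidopsis loci with 2 or more probe sets and at least 1 called, 127 had all of them on the same side of 0 and 47 had all called the same way, and the median range within a locus was 1.83. At 5 loci, WLIM1, LP1, AT5G05340, RD22 and AT5G51190, probe sets were called in both directions. Where 1 value is given for such a locus, it is its largest contrast, except for RD22, where it is that of the qRT-PCR probe set. Cotton is tetraploid and a match names the nearest Arabidopsis gene, so probe sets of 1 locus can read different homoeologs or paralogs, and those with the suffixes _s_at, _x_at and _a_at can read several transcripts. The share called was 7.63% for _at, 6.61% for _s_at, 8.48% for _x_at and 11.2% for _a_at probe sets. With only the _at probe sets the heat shock list had 18 higher and 2 lower of 31, the xyloglucan list 4 lower of 8, the defence list 7 lower of 12, the NAC list 3 lower of 8 and the WRKY list 10 lower of 30, and none of the last 4 had a member called higher.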

How the data were processed

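Biotinylated cRNA made from total RNA was hybridised to Affymetrix cotton GeneChip arrays, and the authors made the deposited log2 values with RMA in GeneSpring GX. In each of 24132 rows the 6 arrays of a stage were checked to have a median of 0. The 12 arrays labelled 5 and 20 dpa, 3 in each of 4 groups, entered 1 fit with limma 3.58.1 (R 4.3.3), with moderated variances (residual df 8, prior df 4.12) and Benjamini-Hochberg adjustment over 24029 probe sets. Thresholds were those of the study, a fold of 3 or more and an adjusted p no greater than 0.01. The other 18 arrays had a fit of their own. With 3 arrays per group, their number limits the precision of each value, and no depth applies. Array medians lay between −0.03 and 0.043, no arrays were identical, and the fit was tested on simulated data.

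Names came from the study's whole-genome Arabidopsis search (1473 probe sets) or its transcription factor search (191). Its hormone search gave another locus for 385 of 574 shared probe sets (67.1%), so it set hormone groups only, and 434 probe sets found there alone stay unnamed. The platform's annotation gives 1 gene symbol for 697 probe sets, several for 46 and none for 23389. The authors' fold changes were not used. Named transcripts are the 10 largest called contrasts in each direction and the 2 largest of each list (1 per locus), the 28 qRT-PCR transcripts and the 2 largest unmatched ones in each direction; others were chosen after their values were seen. The members and lists were chosen with earlier results of these data known. Tables and figures were made in Python 3.11.15 (pandas 2.3.3, numpy 2.4.6, matplotlib 3.10.9).

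Alternatives were all 30 arrays in 1 fit, unmoderated variances, array weights, arrays centred on the median or the 75th percentile, a block for the replicate number, a fold of 2, an adjusted p of 0.05, control probe sets kept, cross-hybridising probe sets left out, each array left out and the labels exchanged.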

Additional observations from a re-analysis of the deposited data

Results flagged for a closer look

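The genotype difference itself differed between the stages, by limma's test of the stage contrast, for 754 probe sets called higher and 1014 called lower, by the labels. In 11 of the higher set the fl mutant was called above WT at 20 dpa and below it at 5 dpa, and in 72 of the lower set it was called below WT at 20 dpa and above it at 5 dpa.

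Among the named transcripts with calls in opposite directions at both stages were HSP22.0 at 9.41, AT1G07400 at 8.81 and EXPA10 at 7.71 on the log2 scale. The negative ones were AT3G62730 at −10.61, EXLB1 at −10.32, OSM34 at −9.07, AT1G78860 at −8.27, NRT1.5 at −7.60, PIP2B at −7.26, CHIB at −6.58, CHS at −6.52, AT5G05340 at −6.41 and AT1G03220 at −6.38. In each of these 13 no fl mutant value overlapped a WT value at either stage. They were picked by calls on these same arrays, so the lack of overlap adds no separate support.

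A control probe set, left out of the comparison, and a reporter probe set, which is 1 of the 754 called higher, also passed both thresholds. AFFX-Gra-actin-M_s_at, a probe set to the middle of an actin messenger, had a contrast of −2.19, with −2.44 at 20 dpa and −0.248 at 5 dpa. The reporter RPTR-Ghi-U57609-2_s_at had 5.00, with 0.285 at 20 dpa and −4.71 at 5 dpa. They were the single ones called among 103 Affymetrix controls and 52 reporters.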

How the results depend on the processing

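At a fold of 2 in place of 3, the contrast had 3695 calls (1645 higher, 2050 lower), 20 dpa 2608 (1350 and 1258) and 5 dpa 1084 (883 and 201), with 36 and 200 probe sets in opposite directions. Without cross-hybridising probe sets, which leaves fewer to test, there were 972 (476 and 496), 561 (351 and 210) and 273 (236 higher), with 38 lower at 20 dpa and higher at 5 dpa. That setting held 54.9% of the original calls, and every other setting held 97.6% or more. Exchanging the labels at both stages gives 43 higher and 441 lower at 5 dpa, and 72 and 11 in opposite directions.

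Leaving out each array gave 1751 to 1776 calls in the contrast (739 to 763 higher, 1000 to 1028 lower), 1062 to 1084 at 20 dpa (594 to 605 and 468 to 485) and 479 to 493 at 5 dpa (435 to 450 and 41 to 44). The opposite calls ranged from 10 to 11 and from 69 to 76. Centring arrays on their median shifted the median contrast to 0.0285, with 1775 calls, 40.6% of them higher against 42.6%. Apart from exchanged labels, which turn every contrast, no named transcript lost its call or turned in any setting that tested it; cross-hybridising ones were not tested in the setting without them. TCH2 at −1.57, just under the threshold, passed in 7 settings and a TCH4 probe set in 1. Of 2392 counts of lists over settings 91 moved by more than 1.5 times.

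With the replicate number as a block the contrast had 1768 calls, or 1769 with the block within stages. Same-numbered arrays did not deviate together (correlations of −0.158 to 0.0524 over 18 pairs of groups), so the numbers do not pair the arrays. Precision is limited by 3 arrays per group, and without levels it could not be read whether a probe set was above background.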

Other observations

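The list of 28 primer pairs used for qRT-PCR holds 1 pair, for the cellulose synthase IRX3, in which the reverse primer is the exact reverse complement of the forward one:
IRX3 forward: attgtgtggtgtctggacccttgt
IRX3 reverse: acaagggtccagacaccacacaat

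A housekeeping transcript also passed. AT5G60390, an elongation factor 1-α often used as a reference gene (GhiAffx.9295.1.S1_x_at), had 1.77, 1.50 and 1.15 in fl mutant and −1.15, −2.37 and −2.23 in WT at 20 dpa, and 0.36, 0.30 and 0.38 in fl mutant and −0.36, −0.30 and −0.45 in WT at 5 dpa. Its contrast was 2.67 (SE 0.353, limma adjusted p = 3.56e-05), with a wide spread among the WT arrays at 20 dpa.

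Sugar metabolism showed both signs. Galactinol synthase GolS1, the first enzyme of raffinose sugars, stood at 3.19 in 1 probe set and at 0.61 and 1.21, not called, in the others, and TPS9 of the trehalose family at −4.32. The alternative oxidase AOX2 of mitochondria was at −4.04 in 1 probe set and at −0.481 and 0.0477, not called, in the other 2, and the carbonic anhydrase BCA5, carried by 5 dpa, at −3.50.

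The share of probe sets called in either direction was 9.51% for the Ghi and 9.13% for the GhiAffx probe sets, designed from G. hirsutum sequences, and 3.16% for Gra and 1.89% for GraAffx, designed from G. raimondii.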
